A study of Mus musculus with 20 samples.

Results

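Oxidative phosphorylation was described gene by gene in 20 single cells of the mouse inner cell mass, the inner clump of blastocyst cells from which the epiblast and the primitive endoderm form. The genes are the nuclear-encoded subunits of respiratory complexes I to IV, cytochrome c and ATP synthase (complex V), together with the Ndufaf factors that build complex I. They were chosen by symbol alone, as those beginning with Nduf, Cox4 to Cox8, Uqcr or Atp5, plus Sdha to Sdhd, Cyc1 and Cycs, among probe sets that name a single gene. This gave 92 of the 18193 genes on the array: 34 of complex I, 4 of complex II, 9 of complex III, cytochrome c, 19 of complex IV, 17 of complex V and 8 assembly factors. The label "subunits" therefore covers 84 of the 92, since the Ndufaf factors are absent from the finished complex.

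Each array held the amplified cDNA of 1 cell from C57BL/6 blastocysts at embryonic day 3.5, untreated, and all 20 cells formed 1 group. The design text says that 55 cells were picked at random, of which 50 passed a PCR screen as Oct4-positive (Pou5f1) and negative for Cdx2, a trophectoderm gene. The labels do not tie cells to embryos, so the spread below is between cells and may include the embryo. Cells are named by replicate number.

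The respiratory chain passes electrons from NADH (complex I) or succinate (complex II) through complex III and cytochrome c to oxygen at complex IV, and pumps protons across the inner mitochondrial membrane. ATP synthase uses the return of those protons to make ATP. Several complex IV subunits exist as paralogs restricted to muscle, lung or testis, and the blastocyst is the stage at which the embryo is known to raise its oxygen use alongside its glucose uptake.

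Levels are log2 values of the deposited probe set intensity after quantile normalization, with 8.77 added before the logarithm, so the lowest possible level is 3.29. A gene counted as detected in a cell when it exceeded that array's floor, taken as the 95th percentile over 183 probe sets whose genes are foreign to this tissue, which lay between 6.64 and 7.23. The median deposited intensity lay between 25.6 and 30.2 except in cell 19, where it was lower. Pou5f1 was above the floor in 20 of 20 cells. Of 13 trophectoderm markers, 8 exceeded the floor in at least 3 cells, 1 of them in all 20. The other 5 exceeded it in 0 cells (Atp12a, Elf5, Gata3, Krt19 and Krt7). Cdx2 lay near the floor (7.43 ± 0.35, SD, n = 20) and exceeded it in 18 cells.

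The cells were also described as 2 lineage-like sets. Clustering on 500 variable genes, with none of the 92 and no lineage marker among them, gave 10 epiblast-like cells (1, 2, 7, 9, 12, 13, 14, 16, 18 and 19) and 10 primitive endoderm-like cells (3, 4, 5, 6, 8, 10, 11, 15, 17 and 20). Fgf4, a growth factor of epiblast cells, exceeded the floor in all 10 epiblast-like cells and in 0 of 10 primitive endoderm-like cells. Gata4, a transcription factor of primitive endoderm, exceeded it in 0 epiblast-like cells and in 10 primitive endoderm-like cells. Of 13 primitive endoderm markers detected in at least 3 cells, 11 were higher in primitive endoderm-like cells. The other 2 were higher in epiblast-like cells, 1 of them at least 2-fold, and Dab2, Ttr and Afp exceeded the floor in 0 cells. All 12 epiblast markers were higher in epiblast-like cells, where 54.2% of all genes were. The separation was shallow (mean silhouette 0.112). Because the clusters come from the same arrays, differences between them carry no p-value.

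Most of the machinery was detected in every cell. Of the 92 genes, 76 were above the floor in all 20 cells, against 16.9% of all genes. A further 11 were above it in some cells and 5 in none. Counted over genes and cells, 1669 of 1840 values exceeded the floor. All 9 complex III genes and all 17 complex V genes were in the group of 76, as were cytochrome c (Cycs) and 33 of the 34 complex I genes. The exception in complex I was Ndufb4, an accessory subunit of the membrane arm, above the floor in 1 cell by the only single-gene probe set it has.

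**Figure D1:**
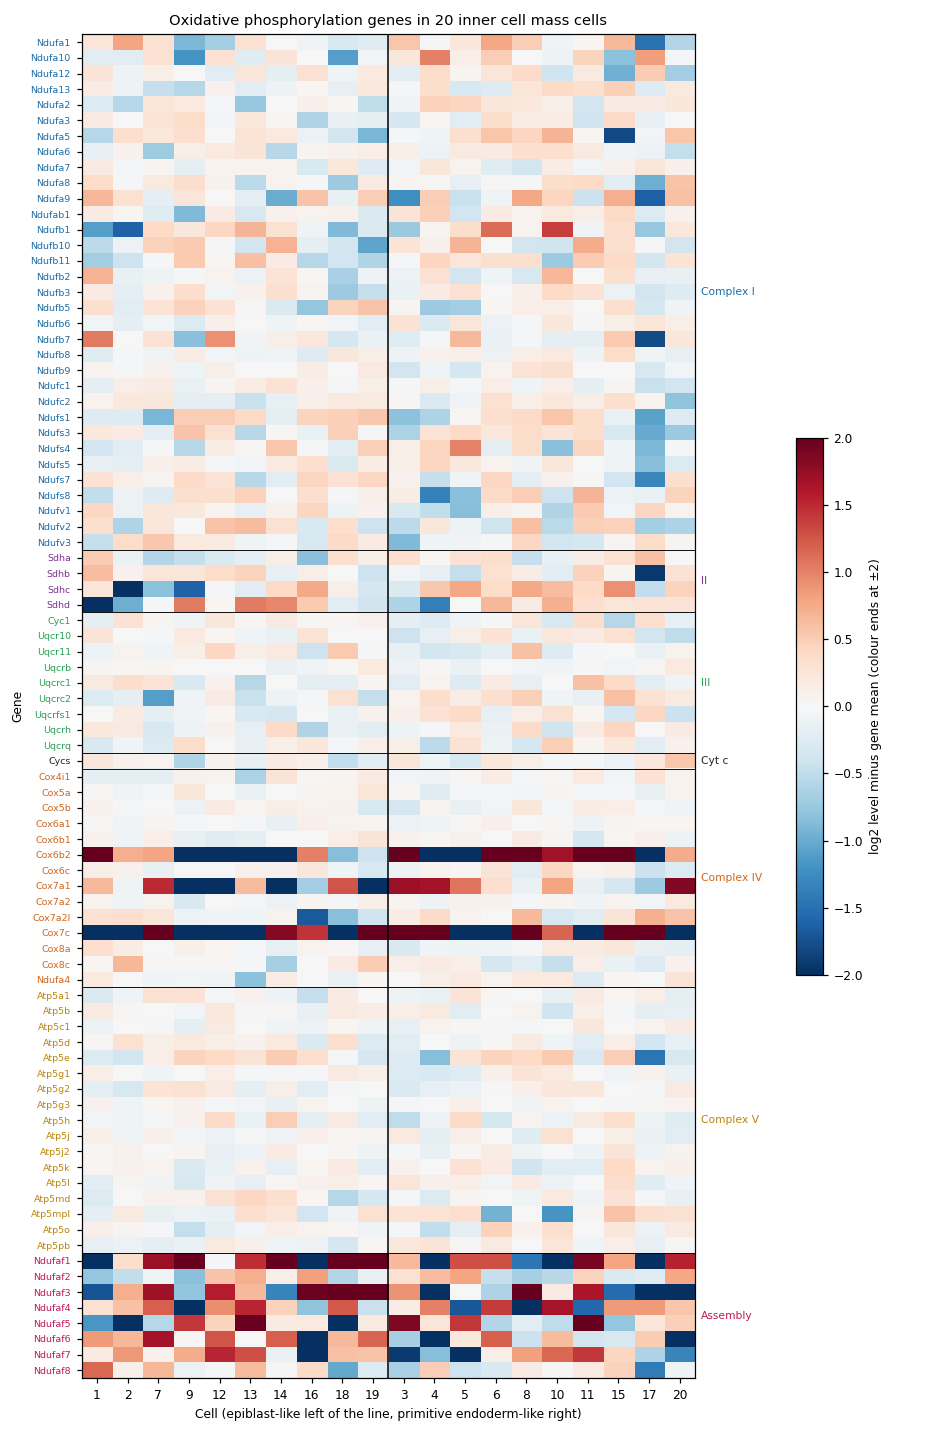
Level of each of the 86 genes detected in at least 3 cells (rows, coloured by complex) in each of the 20 cells (columns), as the log2 level minus the gene's mean over cells. Epiblast-like cells are left of the line, primitive endoderm-like cells right. Most rows are pale, and the strong colours sit in a few complex IV genes and in the assembly factors.

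Complex IV split by paralog. The widely expressed forms Cox4i1, Cox6a1, Cox6b1, Cox7a2, Cox8a and Ndufa4 were above the floor in all 20 cells. The genes detected in 0 cells were Cox4i2, the form known from lung and hypoxic cells, Cox6a2 and Cox8b of heart and skeletal muscle, Cox7b2 of testis, and Ndufa4l2, the hypoxia-inducible paralog of Ndufa4. For an array this means a signal not above the floor, not an absent transcript. Testis-type Cox8c cleared the floor in all 20 cells by 1 probe set, at 6.95 to 8.27, and in 0 cells by the other, so its detection rests on a dim probe set.

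Cox6b1, the ubiquitous form of a subunit at the intermembrane face of complex IV, ran from 12.50 to 12.99 with median 12.73 in epiblast-like cells, and from 12.38 to 12.89 with median 12.79 in primitive endoderm-like cells. Its testis-enriched paralog Cox6b2 spread far wider. Cox6b2 ranged from 3.29 to 9.26 (median 5.87) in epiblast-like cells, where 4 of 10 cells were above the floor, and from 3.29 to 10.70 (median 8.53) in primitive endoderm-like cells, where 7 of 10 were. The ranges overlapped widely. Cells below 4 occurred in both sets: 9, 12, 13 and 14 were epiblast-like, and 4, 5 and 17 primitive endoderm-like. The cells above 10, 11 and 15, were both primitive endoderm-like.

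Cox7a1, the heart and skeletal muscle form of a complex IV subunit, ranged from 5.49 to 9.76 (median 7.88) in epiblast-like cells and from 7.54 to 10.12 (median 8.84) in primitive endoderm-like cells. It exceeded the floor in 6 of 10 epiblast-like cells and 10 of 10 primitive endoderm-like cells, and the 4 cells below it were 9, 12, 14 and 19. The ubiquitous Cox7a2 stayed between 12.69 and 13.12 in epiblast-like cells and between 12.90 and 13.20 in primitive endoderm-like cells. The related gene Cox7a2l averaged 10.62 ± 0.62 in epiblast-like cells and 11.06 ± 0.36 in primitive endoderm-like cells (SD, n = 10 each). Cox7a2l thus differed by -0.45, within the larger SD. Its other 2 probe sets gave -0.47 and -0.45.

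Cox7c, a subunit with no tissue-specific paralog, was nonetheless measured as present or absent from cell to cell. Its level ran from 3.29 to 8.98 (median 3.91) in epiblast-like cells and from 3.29 to 10.19 (median 7.79) in primitive endoderm-like cells, above the floor in 4 and 6 of 10. The second Cox7c probe set followed the first over the 20 cells (r = 0.93) and was above the floor in 1 epiblast-like cell and 5 primitive endoderm-like cells. By this Pearson r the probe sets of the gene rose and fell together over the cells. Both reach the lowest possible level, and the ranking of cells near it was not compared. Whether both probe sets report the full transcript was not tested.

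**Figure D2:**
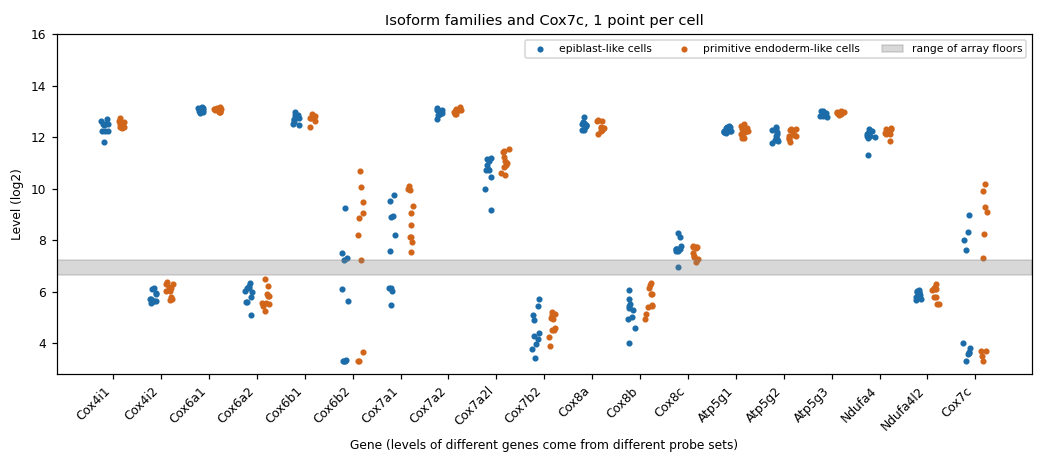
Log2 level of complex IV, Ndufa4 and subunit c paralogs and of Cox7c, with 1 point per cell, epiblast-like cells to the left and primitive endoderm-like cells to the right within each gene. The grey band is the range of the array floors, 6.64 to 7.23. Cox4i2, Cox6a2, Cox7b2, Cox8b and Ndufa4l2 lie under the band in every cell, whereas Cox6b2, Cox7a1 and Cox7c straddle it.

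The 17 ATP synthase genes had a median SD over the 20 cells of 0.19. Subunit c, which forms the rotor ring, is made from 3 genes, and all were detected in 20 of 20 cells. Atp5g3 ran from 12.78 to 13.02 in epiblast-like cells and from 12.86 to 13.02 in primitive endoderm-like cells. Atp5g1 and Atp5g2 had SDs over the 20 cells of 0.16 and 0.19, and the gamma subunit of the central stalk, Atp5c1, of 0.11. The catalytic beta subunit Atp5b averaged 12.48 ± 0.12 in epiblast-like cells and 12.38 ± 0.19 in primitive endoderm-like cells (SD, n = 10 each). More spread were Atp5e, the epsilon subunit of the central stalk (10.08 to 12.06 over all cells), and Atp5mpl, a small membrane subunit (10.68 to 12.43).

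These bright, even genes have to be read against level, since from level 9 upwards the median SD of genes detected in at least 3 cells was lower at each higher level. Among genes with a mean level of 12 to 13, the median SD was 0.19 over 30 members, against 0.19 over 218 genes of that level. At 11 to 12 it was 0.36 over 28 members, against 0.38 over 573 genes. At 10 to 11 the median SD was 0.54 over 11 members, against 0.65 over 1005 genes, and 10 of those 11 members lay below the median of their level. At 9 to 10 it was 0.80 over 4 members, against 0.92 over 1309 genes, and at 13 to 14 it was 0.09 over 3 members, against 0.06 over 58 genes.

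**Figure D3:**
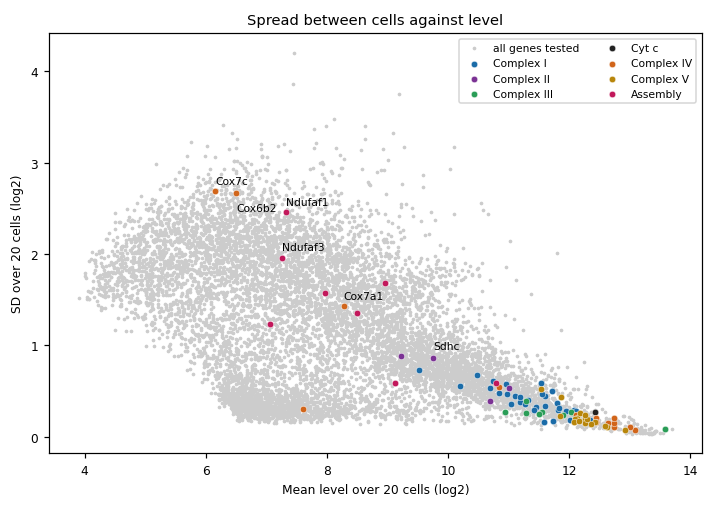
SD over the 20 cells against mean level, both on the log2 scale, for all 9912 genes detected in at least 3 cells (grey) and for 86 of the oxidative phosphorylation genes (coloured by complex). The coloured points follow the lower right of the grey cloud, and Cox7c, Cox6b2, Ndufaf1 and Ndufaf3 sit in its upper left.

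The variance of each gene over the 20 cells was tested against the variance fitted for genes of its level (limma with a level trend, F test, Benjamini-Hochberg over 9912 genes). The test called 0 genes (0%), and at an unadjusted p under 0.05 it passed 23 genes (0.232%), of which 0 were members. The fitted prior has 2.15 degrees of freedom, which means that variances differed widely between genes of like level. The smallest p of any gene in this F test was 0.00894, and the smallest adjusted p was 0.732. The 12 epiblast markers tested had 0 calls as well, so 0 calls does not show that members vary little. At an unadjusted p under 0.05 in the F test, 4 of these 12 passed, and 3 of the 13 primitive endoderm markers. Median variance ratios of these marker lists were 13.6 and 12.1. Members had a median variance ratio of 1.65, against 1.93 over all genes tested. Among genes detected in all 20 cells the order was the other way, 1.54 over the 76 members against 1.17 over all 3083 genes. The largest ratios belonged to Cox6b2 (10.4), Ndufaf1 (10.2), Cox7c (8.81) and Ndufaf3 (6.48), each with an adjusted p of 0.732 in limma.

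Within complex I the 2 members with the largest variance ratio were Ndufa1 and Ndufs8. Ndufa1, an accessory subunit encoded on the X chromosome, ran from 10.63 to 12.32 (median 11.49) in epiblast-like cells and from 10.03 to 12.30 (median 11.66) in primitive endoderm-like cells. Ndufs8, a core subunit that carries iron-sulphur clusters, ran from 11.23 to 12.19 (median 11.79) in epiblast-like cells and from 10.37 to 12.40 (median 11.74) in primitive endoderm-like cells. Its spread was not peculiar to a probe set: the other 5 Ndufs8 probe sets correlated with it over the 20 cells at r of 0.94 to 0.99, and cells 4 and 5 were the lowest by the probe set used. At the other end, the accessory subunits Ndufb8 and Ndufb6 had SDs of 0.16 and 0.17.

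Complex II is the only complex with no mitochondrially encoded subunit, and it also belongs to the citric acid cycle. Its membrane anchor Sdhc ran from 7.24 to 10.51 (median 9.63) in epiblast-like cells and from 9.27 to 10.67 (median 10.24) in primitive endoderm-like cells, a difference of -0.81 that is within the larger SD. The low end was cell 2 at 7.24 and cell 9 at 8.13, and the other cells of both sets overlapped. A second Sdhc probe set gave -0.66. The flavoprotein Sdha averaged 10.55 ± 0.42 in epiblast-like cells and 10.84 ± 0.30 in primitive endoderm-like cells, and the iron-sulphur subunit Sdhb 11.17 ± 0.30 and 10.85 ± 0.68 (SD, n = 10 each). A second Sdha probe set, above the floor in all 20 cells, gave a difference of -0.15 against -0.29. It barely followed the first over the cells (r = 0.12), so the ranking of cells by Sdha depends on the probe set. Sdhd, the other anchor, was above the floor in 9 epiblast-like cells and 10 primitive endoderm-like cells.

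Uqcrb, a small complex III subunit near the quinone site, ran from 13.46 to 13.78 in both epiblast-like cells and primitive endoderm-like cells. Several cells shared exactly the same Uqcrb value, such as cells 19 and 20 at 13.78. Quantile normalization sets each level by its rank on the array, so the matching ends of these ranges are shared rank values. The small subunits Uqcr11 and Uqcrq had the lowest variance ratios of complex III, with SDs over the 20 cells of 0.27 and 0.26. Uqcrc2, a core protein of the matrix face, averaged 11.07 ± 0.39 in epiblast-like cells and 11.51 ± 0.23 in primitive endoderm-like cells (SD, n = 10 each). Its difference of -0.44 was larger than either SD, although the ranges, 10.19 to 11.60 in epiblast-like cells and 11.15 to 11.88 in primitive endoderm-like cells, overlapped, and a second probe set gave -0.47. Cycs, the electron carrier between complexes III and IV and a trigger of apoptosis when released, averaged 12.34 ± 0.28 in epiblast-like cells and 12.49 ± 0.24 in primitive endoderm-like cells (SD, n = 10 each).

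The median difference, epiblast-like minus primitive endoderm-like, was -0.01 over the 86 genes detected in at least 3 cells, against 0.04 over all 9912 such genes. Of the 86, 41 were higher in epiblast-like cells and 45 in primitive endoderm-like cells, where 54.2% of all genes were higher in epiblast-like cells. A difference of at least 1 (2-fold) was reached by 5 members, against 19.1% of all genes. Among the 76 members detected in all 20 cells 0 reached it, against 2.14% of all genes so detected (1.17% higher in epiblast-like cells and 0.973% in primitive endoderm-like cells), a share near the background. The members were also set against genes of their level among those detected in at least 3 cells. At mean levels of 11 to 13 the members differed about as much as other genes. The median absolute difference was 0.08 for members against 0.07 for all genes at a mean level of 12 to 13, and 0.15 against 0.17 at 11 to 12. At 10 to 11 it was lower for members, 0.19 against 0.28, and 0 of 11 were 2-fold apart against 7.26% of all genes. At 9 to 10 it was 0.35 over 4 members against 0.38, and at 13 to 14 it was 0.03 over 3 against 0.02.

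The 3 members at least 2-fold higher in primitive endoderm-like cells were complex IV genes: Cox6b2 (-1.76), Cox7c (-1.34) and Cox7a1 (-1.21), where 7.84% of all genes met this. The 2 at least 2-fold higher in epiblast-like cells were assembly factors, Ndufaf3 (1.52) and Ndufaf1 (1.13), where 11.3% of all genes did. For all 5 the larger SD of the clusters exceeded the difference. With values under an array's floor raised to it, 1 of the 5 stayed past 2-fold, Cox6b2 at -1.29, against 6.74% of all genes. By direction this was 0 members higher in epiblast-like cells, against 3.65% of all genes, and 1 in primitive endoderm-like cells, against 3.09%. Clusters whose ranges did not overlap were found for 0 members, against 0.262% of all genes. A difference above the larger SD was found for 2 members, Uqcrc2 and the peripheral stalk subunit Atp5pb (-0.17), against 8.25% of all genes.

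**Figure D4:**
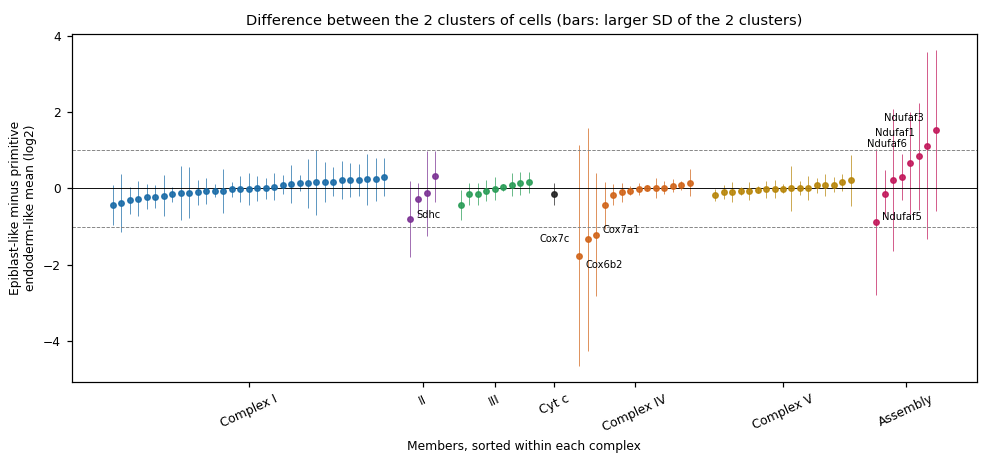
Epiblast-like minus primitive endoderm-like mean level (log2) of the 86 genes, sorted within each complex, with bars of the larger SD of the 2 clusters (n = 10 cells each). Dashed lines mark 2-fold. Points hug 0 in complexes I, III and V, whereas Cox6b2, Cox7c, Cox7a1, Ndufaf3 and Ndufaf1 pass the lines with bars that cross 0.

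By complex, the median difference was -0.01 for complex I, -0.21 for II, -0.00 for III, -0.03 for IV and -0.00 for V. Inside complex I, 6 core subunits of the matrix arm (Ndufv1, Ndufv2, Ndufs1, Ndufs3, Ndufs7 and Ndufs8) were all higher in epiblast-like cells, by 0.14 to 0.30, and the other 27 had a median of -0.06 with 10 higher in epiblast-like cells. This grouping was made after the values were seen, and each of the 6 differences was smaller than the larger SD of its clusters. The accessory subunit Ndufa10 was the complex I gene with the largest difference, at 9.98 ± 0.53 in epiblast-like cells and 10.42 ± 0.52 in primitive endoderm-like cells (SD, n = 10 each).

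Of the complexes and groups, the assembly factors had the highest median SD over the 20 cells (1.46). Ndufaf2 and Ndufaf8 were detected in all 20 cells and the other 6 in 12 to 18 cells. Ndufaf3, which with Ndufaf4 helps assemble the quinone-binding module, ran from 5.53 to 9.87 (median 8.41) in epiblast-like cells and from 3.29 to 9.32 (median 6.95) in primitive endoderm-like cells. Ndufaf1, which acts on the membrane arm, ran from 3.29 to 10.15 (median 8.92) in epiblast-like cells and from 3.29 to 9.23 (median 8.04) in primitive endoderm-like cells. Both overlapped widely between the sets, and Ndufaf1 was below 4 in cells 1, 4, 10, 16 and 17.

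Ndufaf6, needed for an early assembly step, averaged 8.92 ± 1.40 in epiblast-like cells and 8.08 ± 1.22 in primitive endoderm-like cells (SD, n = 10 each). A G2 and M phase score, the mean of 21 mitotic genes centred per gene, was also unequal between the sets, at 0.58 ± 0.47 in epiblast-like cells and -0.58 ± 1.28 in primitive endoderm-like cells. Without cells 4, 8, 17 and 20, which scored lowest, the differences were 0.67 for Ndufaf3, 0.25 for Ndufaf1 and 0.31 for Ndufaf6, and Cox7c came to -0.65 and Cox6b2 to -2.81.

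Scores of whole complexes, the mean of a complex's genes after centring each gene, differed in their spread over the 20 cells. Their SD was 0.12 for complex I, 0.09 for III and 0.07 for V. For complex II, with 4 genes, it was 0.33, and its score ran from -0.88 in cell 2 to 0.42 in cell 6. For complex IV it was 0.34, but 0.06 over its 11 genes detected in all 20 cells. For comparison, scores over the same cells had an SD of 0.12 for cytosolic ribosomal proteins, 0.16 for mitochondrial ribosomal proteins and 0.60 for glycolysis. These lists differ in gene number and in signal near the floor. Genes detected in all 20 cells were 42 of 52, 60 of 76 and 7 of 15, in the same order.

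Cell 17, a primitive endoderm-like cell, stood lowest for complex I. Its complex I score was -0.39, and the next lowest was -0.14 in cell 3. It held the lowest level of 11 of the 33 complex I genes, among them Ndufa1, Ndufa9, Ndufs1, Ndufs3 and Ndufv2, and of 16 of the 76 genes detected everywhere. It also held the highest level of 6 of the 76, among them the complex I genes Ndufa7 and Ndufa12 and the complex II gene Sdha. Sdhb, at 9.08, was also lowest there, and so was the complex V score (-0.13). Its scores were -0.39 for complex II, -0.98 for the assembly factors and 0.01 for complex III. The same cell had the lowest mitochondrial ribosome score (-0.41), a score over all genes tested of -0.11, a G2 and M score of -1.21 and a mean correlation with the other cells of 0.627. The part of these in its complex I level was not tested.

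**Figure D5:**
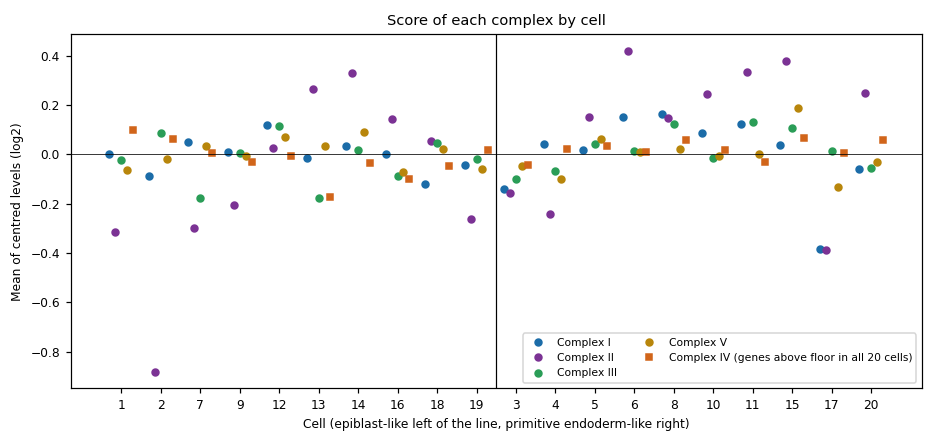
Score of each complex (mean of gene-centred log2 levels) in each of the 20 cells, epiblast-like cells left of the line and primitive endoderm-like cells right. Complex IV is drawn over its 11 genes detected in all 20 cells. Cell 17 is lowest for complex I at -0.39, and cell 2 is lowest for complex II at -0.88.

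Correlations between scores describe the 20 cells, which share the amplification and array steps, and 83 pairs were computed. Complex I went with complex II at r = 0.50 (Spearman's rho 0.48) and with the mitochondrial ribosome at r = 0.67 (rho 0.39). Without cells 3 and 17 these were 0.45 and 0.32. With all cells kept, complex I and the mitochondrial ribosome had r = 0.59 within epiblast-like cells and 0.84 within primitive endoderm-like cells. The latter set includes cells 3 and 17, and r within it was not computed without them. Complex V went with the mitochondrial ribosome at r = 0.53 (rho 0.53), and at 0.60 without cells 15 and 17. Between single genes the coupling was weak: the median pairwise r was 0.06 within complex I, 0.02 without cell 17, and 0.00 over all genes tested.

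Complex IV went with glycolysis at r = 0.64 (rho 0.64) over the 20 cells, at r = 0.90 within the epiblast-like cells and at -0.09 within the primitive endoderm-like cells. Of 14 complex IV genes, those with the highest r with the glycolysis score within epiblast-like cells were Cox6b2 (0.72), Cox6b1 (0.70) and Cox7c (0.65), and the lowest were Cox6c (-0.22) and Cox5b (-0.20). Within primitive endoderm-like cells r was -0.45 for Cox6b2, -0.04 for Cox6b1 and 0.20 for Cox7c. Over the 11 complex IV genes detected everywhere, r was 0.42 in epiblast-like cells and 0.45 in primitive endoderm-like cells. The share of probe sets above the floor moved with the complex IV score within epiblast-like cells as well (r = -0.69), and its part in the relation was not tested.

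Genes around the respiratory chain were set beside it, against the shares over all genes of 11.3% at least 2-fold higher in epiblast-like cells, 7.84% at least 2-fold higher in primitive endoderm-like cells and 54.2% higher at all in epiblast-like cells. In glycolysis, 0 of 15 genes were at least 2-fold higher in epiblast-like cells and 4 in primitive endoderm-like cells, with a median of -0.32. The largest difference was that of Pfkl, the liver-type phosphofructokinase, above the floor in 1 epiblast-like cell and 9 primitive endoderm-like cells (-4.70, and -2.42 with values raised to the floor). Of 76 mitochondrial ribosomal genes, 51 were higher in epiblast-like cells and 0 differed 2-fold. In the citric acid cycle and pyruvate dehydrogenase list, 2 of 23 were at least 2-fold higher in epiblast-like cells and 1 in primitive endoderm-like cells. Of 41 further assembly factors the counts were 3 and 1, in the same order of cells, and of 20 regulators of mitochondrial biogenesis they were 1 and 4. With values raised to the floor, genes 2-fold apart in either direction numbered 4 in glycolysis, 0 in the citric acid cycle list, 1 among the assembly factors and 2 among the regulators, against 6.74% of all genes.

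Sod2, the mitochondrial manganese superoxide dismutase that removes superoxide leaking from the chain, averaged 12.56 ± 0.18 in epiblast-like cells and 11.75 ± 0.41 in primitive endoderm-like cells (SD, n = 10 each). Its difference of 0.81 exceeded either SD. The 10 antioxidant genes did not share this direction: 6 were higher in epiblast-like cells and 4 in primitive endoderm-like cells, with differences from -0.99 to 0.89. Coa7, an assembly factor of complex IV, was above the floor in 10 epiblast-like cells and 7 primitive endoderm-like cells (2.53, and 1.78 raised to the floor). Cyct, the testis form of cytochrome c, was above it in 9 epiblast-like cells and 4 primitive endoderm-like cells (2.58, and 1.51 raised to the floor), in contrast to the somatic Cycs. ND5, the complex I subunit of the mitochondrial genome that the array names, averaged 12.99 ± 0.11 in epiblast-like cells and 12.99 ± 0.16 in primitive endoderm-like cells.

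Promoters were read because nuclear respiratory factor 1 (NRF1) and ETS-family factors such as GABPA are known to bind upstream of many respiratory genes. RefSeq promoter sequence (build GRCm38.p6) matched 75 of the 92 genes, and the 250 bases before each start were searched on both strands for the NRF1 motif and for CCGGAAG (ETS). The NRF1 motif is the run of capitals in the first 3 windows printed here, with any base allowed at the sixth place. A gene with several starts counted if any held the motif. The NRF1 letters were present for 12 of the 75 members, against 4.23% of the 27025 genes with a promoter, 9.95% of those detected in at least 3 cells and 11.5% of those detected in all 20. The ETS letters were present for 14 of the 75 (18.7%), against 7.83%, 16.9% and 19.6% of the same sets. A match is a string of letters and not a measured site.

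The windows shown belong to genes named above for their evenness or their spread, with the motif in capitals and 10 bases on either side, 5′ to 3′ along the gene. The NRF1 letters stand in the first 3 and the ETS letters, read on the opposite strand in Cox6b1 and Atp5e, in the last 4.
Cox6a1: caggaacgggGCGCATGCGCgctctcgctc
Atp5g2: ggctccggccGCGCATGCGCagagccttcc
Atp5c1: ctgagctcccGCGCACGCGCactgagt
Cox6b1: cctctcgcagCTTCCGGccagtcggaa
Atp5e: acggccacagCTTCCGGtagccgctcg
Uqcr11: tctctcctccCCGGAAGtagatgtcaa
Ndufaf1: gggaccacaaCCGGAAGcgtggcgaac
All 7 genes lie on the minus strand. The windows are chr5:115349101-115349130 for Cox6a1, chr15:102671070-102671099 for Atp5g2 and chr2:10080433-10080459 for Atp5c1, the last cut short at the gene's start. They are chr7:30626126-30626152 for Cox6b1, chr2:174464187-174464213 for Atp5e, chr10:80406871-80406897 for Uqcr11 and chr2:119662836-119662862 for Ndufaf1. Both motifs, at separate positions, were held by 3 members, Cox6a1, Atp5h and Sdhd. The ETS letters stood before Cox6a1, with an SD over the 20 cells of 0.07, and before Ndufaf1, with an SD of 2.46.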

How the data were processed

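Per the labels' protocols, cDNA of each lysed cell was amplified by PCR with no purification step and labelled with biotin for Affymetrix arrays. The deposited values are linear probe set intensity (1 to 26616, with 10.1% to 13.4% of an array's probe sets at 1). For the software and normalization behind them, the entry is: not given in the sources used here.

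Of 45101 probe sets, 34945 named 1 gene in GEO's platform annotation, 932 several and 9160 none, apart from 64 controls. The probe set with the highest mean stood for its gene. For the 92 genes, 52 had more than 1 probe set, and 10 further probe sets named several genes and were not used. Arrays were quantile normalized and log2 transformed. Genes exceeding the floor in 3 or more cells entered the variance test, run with limma 3.58.1 (R 4.3.3, squeezeVar with trend, F test). The variance step was tested on simulated data first. There all but a small part of the genes had exactly the fitted variance, unlike the real data. The simulation therefore does not measure the power of the test on these arrays. Clusters came from Ward's method (scipy 1.17.1, Python 3.11.15). No cell was left out, and 0 pairs of arrays shared most of their values. The number of arrays limits the precision.

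The genes, lists and tests were chosen with earlier results of these data known. Named genes were the 2 most and 2 least variable per complex, the 10 with the largest cluster difference (values raised to the floor), all paralog families, and, for some other lists, the gene with the largest difference. Further members are named where a count or a function called for it, with their values seen. Alternatives covered normalization, pseudocount, floor, probe set choice, variance prior, cell grouping and left-out cells.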

Additional observations from a re-analysis of the deposited data

Results flagged for a closer look

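Within each cluster of 10 cells, the highest and lowest values of the named genes and complex scores were checked for a cell standing apart by Dixon's criterion. Of 80 sets checked, 10 had such a cell, and chance gives about 1 in 20. In epiblast-like cells, the complex II score of cell 2 was low (-0.88, next -0.32). Cell 13 was low for the complex IV genes Cox4i1 (11.82, next 12.25) and Ndufa4 (11.29, next 11.98). Cox8c was low in cell 14 (6.95), near the floor, and the assembly factor Ndufaf6 was low in cell 16 (5.23).

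In primitive endoderm-like cells, the succinate dehydrogenase subunit Sdhb was low in cell 17 (9.08, next 10.54). Cell 11 was low for Cox6b1 (12.38, next 12.64) and Ndufa4 (11.86, next 12.12). The complex III genes Uqcr11 and Uqcrb were high in 1 cell each, Uqcr11 in cell 8 (11.52) and Uqcrb in cell 20 (13.78, next 13.61). For Uqcrb the step is small on the log2 scale, and it is a step between rank values set by quantile normalization.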

How the results depend on the processing

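Among alternative values of the main results, 156 stayed within the spread between cells (counts within 1.5 times) and 7 did not. With values raised to the floor, the SD over cells was 0.186 for the complex IV score (0.335 as reported) and 0.350 for the assembly factors (0.623), and 1 member in place of 5 was at least 2-fold apart, since values under the floor no longer differ. With the mean of all probe sets the complex V score had an SD of 0.111, and without probe sets ending in _x_at or _s_at 0.144 (0.073 as reported); under these Atp5c1 differed by -0.43 and -0.79 (-0.07 as reported), as a dim second probe set enters or replaces the first. Without cells 4, 8, 17 and 20 the complex III median was -0.10 and 3 members were 2-fold apart, 0 higher in epiblast-like and 3 in primitive endoderm-like cells, against 20.1% of all genes. That count was 6 without cell 16, an alternative added after seeing the data, and 4 without cell 19. The variance test called 0 members in every alternative run, and in the main run it called 0 genes of any kind. Without quantile normalization the median over members was 0.01 in place of -0.01, so its sign is not settled. Grouping cells by Fgf4 gave the same cells as clustering. No paired analysis was possible because all cells form 1 group and the replicate numbers link no samples. Signal near the floor limits Cox6b2, Cox7a1, Cox7c, Cox8c and the assembly factors.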
